A study of Mus musculus with 6 samples.

Results

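Described here are 37 interferon response genes of the mouse in leukaemia cells of 2 Gata2 genotypes. They were taken from the 43629 genes of the deposited table by their symbols in the GENCODE M21 annotation. All 37 were found, and 36 had enough reads to be tested. They fall into 27 targets of type I interferon, 7 GTPases best known from the response to interferon gamma, and 3 genes of antigen processing. The RNA was from bone marrow sorted for c-kit, taken from end-point leukaemia of the strain C57BL/6. Both groups carry the knocked-in fusion gene Cbfb-MYH11, known from human acute myeloid leukaemia with an inverted chromosome 16. The 3 mice of one group had the genotype Gata2+/+ (replicates 3, 5 and 6), and the 3 of the other had Gata2+/f, with 1 allele in the form the labels write as f (replicates 7, 9 and 11). The labels name no Cre, no inducing agent, no age and no sex, and each library is taken as 1 mouse, since the series text speaks of mice in triplicate.

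Library totals ranged from 53789568 to 67854631 expected counts. Gata2 itself, the gene the groups are named for, was at 886, 887 and 737 CPM (read counts scaled to library size by TMM) in Gata2+/+ and 498, 273 and 264 CPM in Gata2+/f, so no library went against its label. Kit, which encodes c-kit, had 826, 1222 and 1466 CPM against 193, 175 and 328 CPM. The labels give no batch, and p-values measure the spread between these libraries, part of which may be technical.

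Interferons are secreted proteins that warn cells of viral infection. Type I interferons bind the receptor of Ifnar1 and Ifnar2, whose kinases Jak1 and Tyk2 phosphorylate Stat2 among other proteins. Stat2 and Irf9 are subunits of the factor ISGF3, which binds the interferon-stimulated response element (ISRE) in the promoters of antiviral genes. Interferon gamma acts through the receptor of Ifngr1 and Ifngr2, and its response element is the gamma-activated site (GAS). Its targets include GTPases that attack the vacuoles of intracellular pathogens and the machinery that cuts and loads peptides for MHC class I. In bone marrow, interferon can drive resting stem cells into division, and many myeloid cells keep a low basal expression of these genes.

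The promoter sequences are shown because they hold the letters of these response elements, which were found without any expression value. RefSeq promoter windows of 300 bases, from 250 before to 50 after a start site of the build GRCm38.p6, were found for 28 of the 37 genes, in 32 windows. The ISRE core was searched on both strands as GAAA, any NN, and GAAA again, and occurred in the windows of 16 of the 28 genes. Among all 27025 genes with a RefSeq window, 3.99% held it (3.44% of 32851 windows). It was found in 11 of 19 type I targets, in 5 of 6 GTPases and in 0 of 3 antigen processing genes. The GAS, searched as TTCNNNGAA, which reads the same on both strands, occurred in 6 of the 28 genes against 9.55% of all genes (8.30% of windows). It was found in 3 of 19 type I targets, 2 of 6 GTPases and 1 of 3 antigen processing genes. A match is a run of letters and was not tested as a binding site. The stretches of 60 bases before the start site, 5′ to 3′ on the strand of the gene, show the ISRE letters in capitals for 8 type I targets and 2 GTPases.
Ifit1: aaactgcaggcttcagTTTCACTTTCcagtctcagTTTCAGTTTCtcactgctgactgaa
Ifit3: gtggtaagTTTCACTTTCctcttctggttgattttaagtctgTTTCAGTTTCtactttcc
Isg15: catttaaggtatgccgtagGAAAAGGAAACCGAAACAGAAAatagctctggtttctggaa
Oas1a: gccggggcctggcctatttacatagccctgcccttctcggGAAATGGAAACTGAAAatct
Oas3: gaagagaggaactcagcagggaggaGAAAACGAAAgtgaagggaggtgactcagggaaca
Rsad2: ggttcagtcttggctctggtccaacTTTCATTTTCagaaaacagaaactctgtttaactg
Stat2: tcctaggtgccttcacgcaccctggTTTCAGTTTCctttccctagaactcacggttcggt
Bst2: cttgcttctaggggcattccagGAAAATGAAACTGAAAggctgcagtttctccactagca
Irgm1: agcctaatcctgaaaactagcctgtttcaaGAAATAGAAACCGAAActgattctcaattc
Igtp: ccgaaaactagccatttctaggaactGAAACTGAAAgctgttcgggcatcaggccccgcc
The stretches lie at chr19:34640769-34640828 and chr19:34583365-34583424 (forward strand), chr4:156200856-156200915, chr5:120907526-120907585, chr5:120777700-120777759 and chr12:26456538-26456597 (reverse strand), chr10:128270251-128270310 (forward), chr8:71537565-71537624 and chr11:48871421-48871480 (reverse) and chr11:58199496-58199555 (forward). In Isg15 the matches overlap each other, with first bases at −78, −72 and −66 from the start site (position 0). Ifit1 and Ifit3 each carry a pair of separate copies. In Stat2 the single copy lies far upstream, with its first base at −222, while in Oas1a the copies begin at −20 and −14. In Bst2 a GAS match overlaps the first ISRE match. All these positions are counted from RefSeq start sites. For 8 of the 13 genes printed here and below, the first 18 bases from the start were found in a GENCODE transcript of the gene. For Ifit3, Oas1a, Stat2, Bst2 and Gbp7 they were not, so their distances hold for the RefSeq start only.

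**Figure D1:**
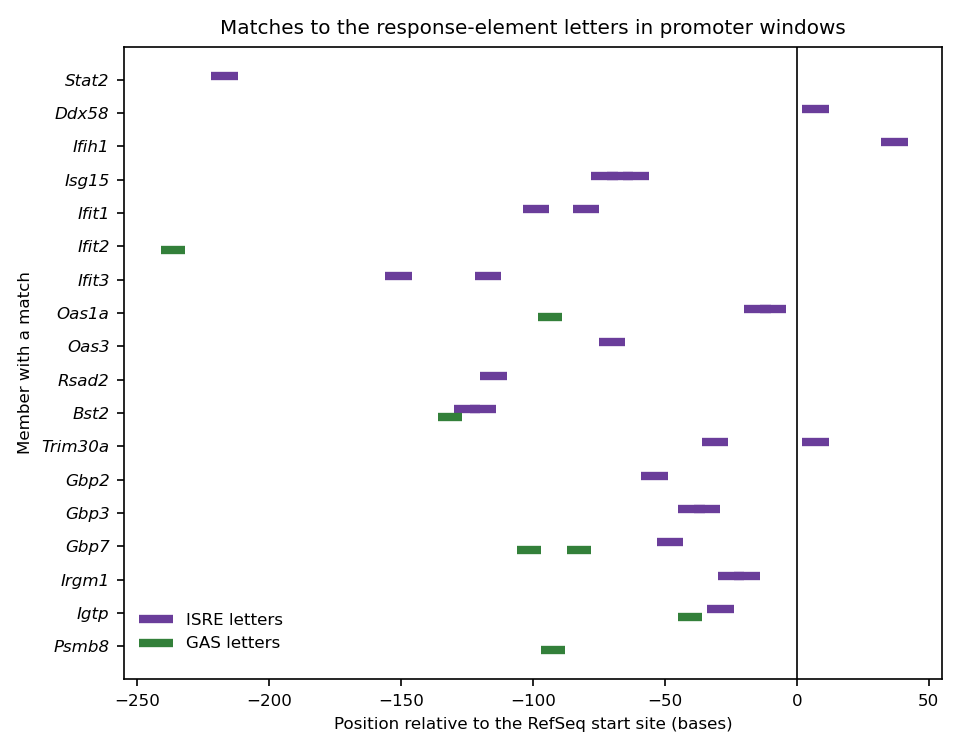
Positions of the ISRE letters (purple, 10 bases) and the GAS letters (green, 9 bases) in the RefSeq promoter windows of the members that hold a match; the x axis is the distance from the start site in bases, negative before it, and each line of the y axis is a gene. Most ISRE matches lie before the start site, from Stat2 at −222 to Oas1a at −14, while those of Ddx58 and Ifih1 and that of a second window of Trim30a lie after it.

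No interferon response gene passed the test between the genotypes. In edgeR's quasi-likelihood test, adjusted by Benjamini and Hochberg's method across 15432 tested genes, 0 of 36 members had an adjusted p under 0.05, and the same held for 0% of all tested genes. The smallest adjusted p of a member was 0.137 (Mx1). DESeq2's Wald test called 5 members higher in Gata2+/f (Mx1, Ifit1, Ifit3, Oas2 and Bst2) and 0 lower. That test called 10.5% of all genes, 5.55% as higher and 4.94% as lower. At an unadjusted p under 0.05 in edgeR there were 9 of 36 members (25.0%), against 22.6% of all tested genes, so their number is near the background. Of these, 8 had positive fold changes (22.2% of members, against 11.1% of all tested genes) and 1 a negative one (against 11.5%). The number of positive ones rests on single libraries, since it was 15 without Gata2+/+ replicate 5, 4 without Gata2+/+ replicate 3, 3 without Gata2+/+ replicate 6 and 3 if Gata2+/f replicate 11 was left out. The negative one was Gbp7, and its unadjusted p was above 0.05 in the fits that left out Gata2+/+ replicate 6 or Gata2+/f replicate 9. The 3 libraries of one genotype lay entirely above those of the other for 6 of 36 members (16.7%), fewer than the 29.7% of all tested genes. In 5 of these Gata2+/f was above (13.9%, against 13.1% of all genes), and in 1 it was below (against 16.6%).

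The 3 classes did not have one common direction. Type I targets had positive log2 fold changes in 21 of 26 tested genes, with a median of 0.66, where all tested genes had a median of 0.019 and 51.1% positive values. The GTPases had 4 positive and 3 negative values with a median of 0.19, which was 0.011 without Gata2+/+ replicate 3, 0.021 when Gata2+/f replicate 11 was left out, and −0.013 over the 6 GTPases with all libraries above the count filter. Of the 3 antigen processing genes 1 was positive and 2 negative, with a median of −0.31 that went from −0.098 without Gata2+/f replicate 7 to −0.50 without Gata2+/f replicate 11. With 1 library left out at a time, the type I median stayed between 0.51 and 0.92. Of the 36 tested members 7 passed the filter on low counts without having all 3 Gata2+/+ libraries above it, so they passed in part through Gata2+/f. Over the 20 type I targets with all 6 libraries above the filter the median was 0.46. The shift was larger at low levels. The 13 tested type I targets with a mean below 6.57 CPM over the 6 libraries were all positive, with a median of 1.81. The 13 above that level had 8 positive values and a median of 0.084. Of all tested genes, 56.7% were positive below that level (median 0.19) and 47.9% above it (median −0.029). The 13 lower type I targets include all 6 that passed the filter in part through Gata2+/f. They are Mx2, Ifit1, Ifit3, Oas2, Ifi27l2a and Rtp4, so the shift at low levels is not read as support. The 16 tested members with ISRE letters in their window had 10 positive values and a median of 0.36. The 11 with a window but without these letters had 8 positive values and a median of 0.19. Usp18, Zbp1, Mx1, Mx2, Oas2, Ifi27l2a, Rtp4, Parp14 and Iigp1 have no RefSeq window and are in neither group. All of them but Parp14 had positive values. These are bulk libraries, in which more cells that express a gene and more RNA per cell cannot be told apart.

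**Figure D2:**
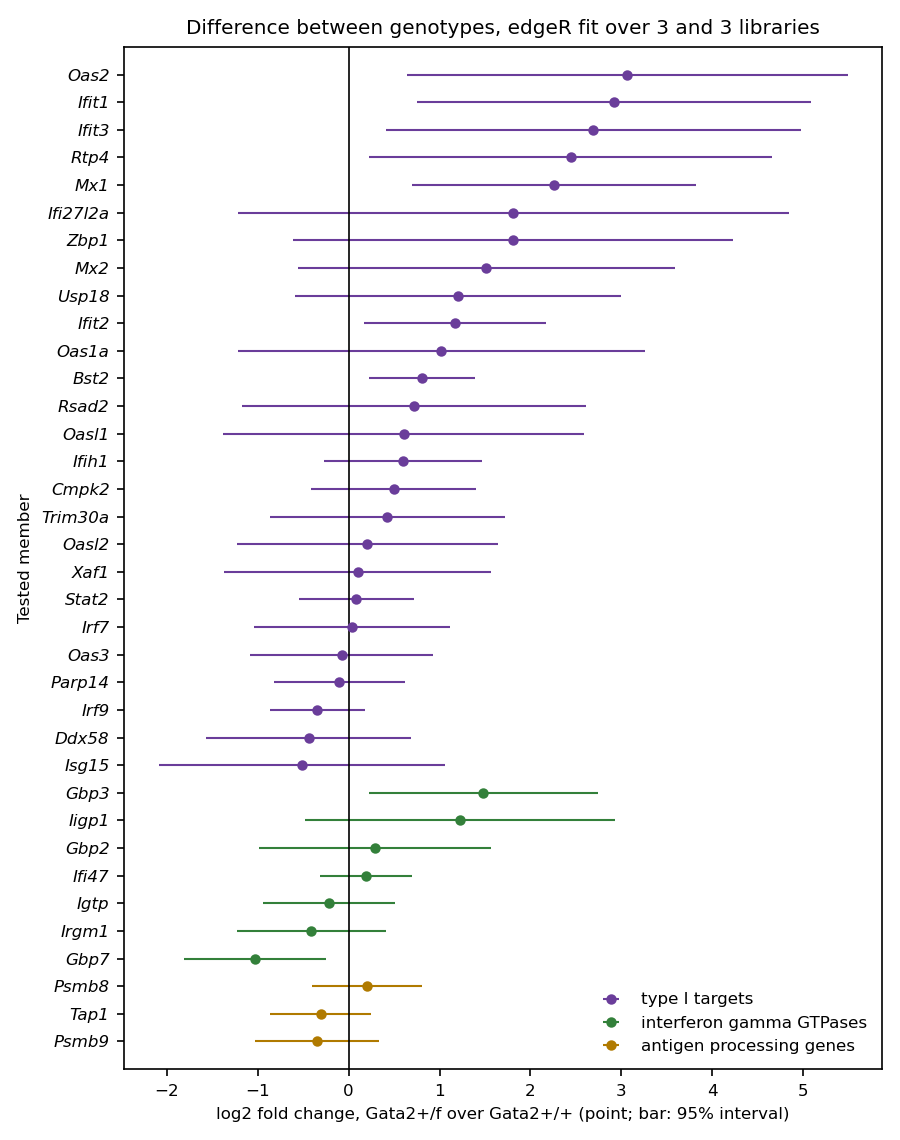
Log2 fold change of each tested member (y axis), Gata2+/f over Gata2+/+ (x axis), as a point with its 95% interval from the edgeR fit over 3 and 3 libraries; colours mark the 3 classes. The type I targets run from −0.52 (Isg15) to 3.07 (Oas2), and the intervals of most members contain 0.

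The transcription factors of the type I response had overlapping groups and 95% intervals that contained 0, which does not show equal levels. Stat2, the subunit of ISGF3 that carries its activation domain, had 30.9, 42.5 and 26.2 CPM in Gata2+/+ replicates 3, 5 and 6 and 30.0, 33.7 and 41.9 CPM in Gata2+/f replicates 7, 9 and 11. The groups overlapped, and the log2 fold change was 0.084 (SE 0.27, edgeR adjusted p = 0.876). Irf9, the DNA-binding subunit, had 56.3, 58.5 and 72.7 CPM against 45.7, 43.7 and 58.3 CPM. Its groups overlapped only narrowly, by Gata2+/f replicate 11, with a log2 fold change of −0.34 (95% interval −0.86 to 0.18). Irf7, the factor that amplifies interferon production and is abundant in plasmacytoid dendritic cells, had 8.34, 18.6 and 10.8 CPM against 9.11, 9.34 and 20.1 CPM. Its log2 fold change was 0.032, with a wide 95% interval of −1.05 to 1.11. Replicates 5 and 11, one of each genotype, stood above the other libraries for this gene. Usp18, the protease that removes Isg15 from proteins and blocks the receptor, was low, at 0.380, 1.38 and 0.280 CPM against 0.778, 1.34 and 2.59 CPM (log2 fold change 1.202, SE 0.77).

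The 3 sensors of foreign nucleic acid had intervals that contained 0. Ddx58 (RIG-I), which detects RNA with a triphosphate end, was at 15.2, 30.7 and 12.4 CPM in Gata2+/+ and 7.75, 14.6 and 20.6 CPM in Gata2+/f, with a log2 fold change of −0.44 (95% interval −1.56 to 0.68). Ifih1 (MDA5), which detects long double-stranded RNA, was at 15.2, 22.5 and 10.5 CPM against 30.0, 16.7 and 26.4 CPM (0.60, interval −0.27 to 1.47). Zbp1, a sensor of Z-form nucleic acid that can start necroptosis, had 0.540, 2.84 and 0.218 CPM against 2.24, 1.77 and 8.61 CPM, so Gata2+/+ replicate 5 lay within the range of Gata2+/f (1.81, interval −0.61 to 4.22). None of the 3 passed an unadjusted p under 0.05.

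Among the type I effectors, 7 of 19 tested genes had an unadjusted p under 0.05, all with positive fold changes (Mx1, Ifit1, Ifit2, Ifit3, Oas2, Bst2 and Rtp4). Of all tested genes 11.1% had such a p with a positive fold change. Ifit1, Ifit3, Oas2 and Rtp4 did not have all 3 Gata2+/+ libraries above the count filter, so the count is not read as support. Mx1, a dynamin-like GTPase that traps viral ribonucleoproteins and carries a defective allele in many laboratory strains, had 0.840, 2.03 and 0.888 CPM in Gata2+/+ and 4.71, 2.59 and 10.6 CPM in Gata2+/f. Each Gata2+/f library lay above each Gata2+/+ library, although replicates 5 and 9 were close. The means were 1.25 ± 0.671 and 5.98 ± 4.17 CPM (SD, n = 3 each, as for all means here), a log2 fold change of 2.26 (SE 0.67), with an adjusted p of 0.137 in edgeR and 0.00886 in DESeq2. Ifit1 binds viral RNA that lacks a methylated cap. It had 6, 14 and 6 reads (0.120, 0.238 and 0.0934 CPM) in Gata2+/+ and 75, 11 and 148 reads (1.06, 0.184 and 2.21 CPM) in Gata2+/f. Gata2+/f replicate 9 thus lay inside the Gata2+/+ range, while replicates 7 and 11 lay above it. The log2 fold change was 2.92 (SE 0.93; adjusted p = 0.150 in edgeR, 0.0186 in DESeq2).

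Ifit3, which stabilises Ifit1 on RNA, showed the same order of the Gata2+/f libraries, with 0.0600, 0.987 and 0.498 CPM against 3.25, 1.17 and 5.63 CPM. Its groups did not overlap, and the log2 fold change was 2.69 (SE 0.98; adjusted p = 0.178 in edgeR, 0.0255 in DESeq2). Its near copy Ifit3b may share reads with it, since the counting divides such reads by a model. Ifit2, which can promote cell death, had 3.24, 7.40 and 5.61 CPM in Gata2+/+ and 9.81, 16.3 and 10.5 CPM in Gata2+/f. Its groups were apart (log2 fold change 1.17, SE 0.43, edgeR adjusted p = 0.180). For Ifit2 the highest library was Gata2+/f replicate 9, the one that was lowest of its group for Ifit1 and Ifit3. The window of Ifit2 held no ISRE letters, unlike those of Ifit1 and Ifit3 printed above.

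Oas2 and Oas3 lie side by side on chromosome 5 (GRCm38, 120730333 to 120749853 and 120753098 to 120777661, both on the reverse strand) and make the oligoadenylates that activate RNase L. Oas2 had 0.240, 0.970 and 0.0934 CPM in Gata2+/+ and 1.06, 2.66 and 7.25 CPM in Gata2+/f. There was no overlap (log2 fold change 3.07, SE 1.04; adjusted p = 0.163 in edgeR, 0.0134 in DESeq2). Oas3 had 6.74, 10.2 and 4.31 CPM against 5.29, 6.55 and 8.27 CPM, a log2 fold change of −0.078 (SE 0.43) whose sign turned under upper quartile scaling and with single libraries left out. The number of Oas2 reads per Oas3 read was 0.0356, 0.0953 and 0.0217 in Gata2+/+ and 0.201, 0.406 and 0.877 in Gata2+/f. This ratio separates the genotypes (exact permutation test, two-sided, p = 0.1, the smallest that 3 against 3 libraries allow), but the pair was chosen after its values were seen. The smaller relative Oas1a, for which the close paralog Oas1g may take reads, had 2.46, 12.95 and 1.32 CPM against 2.72, 18.7 and 12.5 CPM. Replicates 5, 9 and 11 were high and replicates 3, 6 and 7 low, so the spread did not follow the genotype.

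Bst2 (tetherin), which holds budding virions at the cell surface, was the steadiest of these genes. It had 15.1, 15.1 and 14.5 CPM in Gata2+/+ and 21.6, 29.2 and 27.6 CPM in Gata2+/f. The groups were apart, with means of 14.9 ± 0.325 and 26.1 ± 3.98 CPM. The log2 fold change was 0.81 (SE 0.25; adjusted p = 0.145 in edgeR, 0.0349 in DESeq2), and it stayed between 0.77 and 0.97 when any 1 library was left out. The better expressed of the tested genes of chromosome 8, where Bst2 lies, had a median log2 fold change of 0.14. Their median was 0.44 in Gata2+/f replicate 7, −0.059 in replicate 9 and −0.23 in replicate 11 (log2, with the mean of the 6 libraries as reference). Replicate 7, the highest for the chromosome, was the lowest of its group for Bst2. Any part of the chromosome in the Bst2 values was not tested. Bst2 also marks plasmacytoid dendritic cells, whose genes are given further on. Rtp4, a chaperone of receptors that also limits flavivirus replication, had 4, 36 and 7 reads in Gata2+/+ and 92, 31 and 172 in Gata2+/f (0.0800, 0.613 and 0.109 against 1.302, 0.518 and 2.57 CPM). Its groups overlapped through replicates 5 and 9 (log2 fold change 2.44, SE 0.95, edgeR adjusted p = 0.196).

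**Figure D3:**
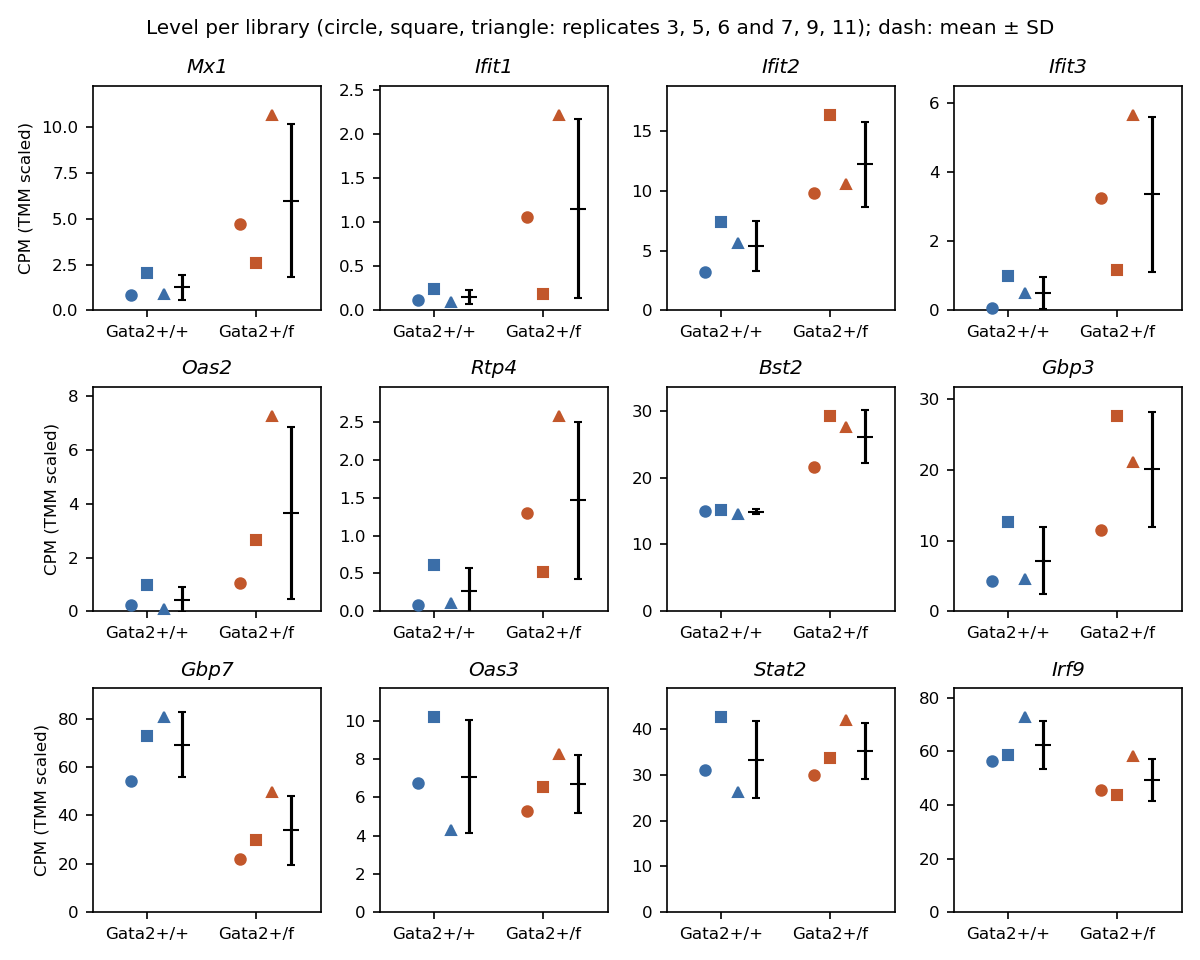
CPM of 12 members in each library, with Gata2+/+ replicates 3, 5 and 6 in blue and Gata2+/f replicates 7, 9 and 11 in orange (circle, square and triangle in that order), and the mean ± SD of each group as a dash with a bar, cut at 0; each panel has its own linear axis. Mx1, Ifit2, Ifit3, Oas2 and Bst2 show all Gata2+/f libraries above all Gata2+/+ libraries, Gbp7 shows the reverse, and Oas3, Stat2 and Irf9 overlap.

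The remaining effectors gave no separation of the genotypes. Isg15, the ubiquitin-like protein that is attached to other proteins, had 14.9, 5.58 and 3.99 CPM against 3.55, 3.14 and 10.4 CPM. It was highest in Gata2+/+ replicate 3, where most type I targets were low, and its log2 fold change was −0.52 (SE 0.68). Oasl1, which restrains translation of Irf7, departed from the others in a different way. It had 1.40, 12.9 and 15.2 CPM in Gata2+/+ and 20.8, 19.3 and 4.86 CPM in Gata2+/f, and was thus low in replicate 11, where 15 of the 27 type I targets were highest. Its neighbour Oasl2 had 3.999, 7.35 and 2.54 CPM against 2.39, 4.61 and 9.01 CPM. Rsad2 (viperin), which makes a chain-terminating nucleotide, had 1.92, 1.86 and 0.965 CPM against 2.15, 0.451 and 5.19 CPM. The gene next to it, Cmpk2, a nucleotide kinase that feeds viperin, had 5.82, 5.46 and 4.30 CPM against 8.69, 4.93 and 8.34 CPM (0.50, SE 0.39).

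Mx2, the paralog of Mx1, was near the limit of the filter, with 8, 26 and 5 reads in Gata2+/+ and 34, 12 and 85 in Gata2+/f. Ifi44 was the 1 member not tested, with 2, 7 and 1 reads against 5, 9 and 43. Ifi27l2a had 0.540, 3.10 and 0.156 CPM against 0.736, 1.45 and 11.15 CPM, a range of 19.9 times within Gata2+/+ and 15.2 times within Gata2+/f. Its log2 fold change of 1.81 went to −0.19 without Gata2+/f replicate 11. Xaf1, which antagonises the apoptosis inhibitor XIAP, had 2.72, 7.12 and 2.04 CPM against 1.98, 5.65 and 5.08 CPM. Trim30a, a regulator of Toll-like receptor signalling, had 8.88, 24.2 and 8.67 CPM against 14.0, 11.3 and 30.9 CPM, with replicates 5 and 11 again on top. Parp14, a mono-ADP-ribosyltransferase, was at 55.4 ± 8.83 and 51.6 ± 18.3 CPM (−0.10, SE 0.31).

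Scaled to exon length, Bst2 was the highest type I target, at 16.5 and 28.9 CPM per kb of exon in Gata2+/+ and Gata2+/f respectively. Irf9 (11.6 and 9.14) and Isg15 (10.8 and 7.54) followed in Gata2+/+, and in Gata2+/f Ifi27l2a (2.73 and 9.60) had a mean above both. The lowest was Ifi44 (0.00950 and 0.0470 CPM per kb).

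The interferon gamma GTPases are of 2 families, the guanylate-binding proteins (Gbp2, Gbp3 and Gbp7, neighbours on chromosome 3) and the immunity-related GTPases (Iigp1, Irgm1, Igtp and Ifi47). Their promoters are set beside each other here because Gbp3 and Gbp7 gave fold changes of opposite sign. ISRE and GAS letters are in capitals in stretches of 120 bases before the start site, all on the forward strand.
Gbp2: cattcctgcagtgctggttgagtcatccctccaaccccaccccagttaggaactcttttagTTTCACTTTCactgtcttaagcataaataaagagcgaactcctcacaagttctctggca
Gbp3: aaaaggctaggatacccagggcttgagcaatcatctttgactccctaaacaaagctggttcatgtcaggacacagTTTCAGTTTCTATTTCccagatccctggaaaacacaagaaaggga
Gbp7: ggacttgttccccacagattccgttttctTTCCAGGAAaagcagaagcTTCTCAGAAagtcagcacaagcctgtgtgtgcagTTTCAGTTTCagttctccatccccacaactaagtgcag
They lie at chr3:142620543-142620662, chr3:142559924-142560043 and chr3:142530201-142530320. Gbp3 and Gbp7 share the same 10 ISRE letters, TTTCAGTTTC. Gbp7 also holds a pair of GAS matches, with first bases at −106 and −87, and the windows of Gbp2 and Gbp3 hold none.

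Gbp7 had 54.4, 72.7 and 80.5 CPM in Gata2+/+ and 22.2, 29.8 and 49.7 CPM in Gata2+/f. The groups were apart, with means of 69.2 ± 13.4 and 33.9 ± 14.2 CPM, and the log2 fold change was −1.03 (95% interval −1.82 to −0.25; adjusted p = 0.155 in edgeR, 0.104 in DESeq2). Gbp3 had 4.36, 12.6 and 4.55 CPM against 11.5, 27.6 and 21.1 CPM, overlapping through Gata2+/+ replicate 5, with a log2 fold change of 1.48 (interval 0.22 to 2.74; adjusted p = 0.179 in edgeR, 0.0612 in DESeq2). Gbp2 had a log2 fold change between theirs (0.29, SE 0.55), at 2.68, 9.14 and 3.88 CPM against 4.92, 5.48 and 8.76 CPM. The number of Gbp3 reads per Gbp7 read was 0.0801, 0.174 and 0.0565 in Gata2+/+ and 0.519, 0.926 and 0.424 in Gata2+/f, so each Gata2+/f library lay above each Gata2+/+ library. The exact permutation test on the log2 ratio gave a two-sided p of 0.1, the smallest that 3 against 3 libraries allow, for a pair chosen after its values were seen. Members of this family share sequence, and the division of shared reads between them is uncertain.

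None of the 4 immunity-related GTPases had an unadjusted p under 0.05. Irgm1, which regulates the other members and protects host membranes, had 30.2, 46.5 and 51.9 CPM against 47.4, 24.0 and 25.2 CPM (−0.41, SE 0.35). Igtp (Irgm3), another regulator, had 11.6, 14.1 and 14.3 CPM against 8.84, 12.03 and 13.5 CPM (−0.22, SE 0.31). The annotated gene of Irgm2 covers that of Igtp over 7974 bases on the same strand, so their counts are uncertain. Ifi47, an IRG of effector type, varied least, at 28.2, 36.2 and 31.8 CPM against 38.9, 34.8 and 36.1 CPM (0.19, SE 0.22). The receptor gene Olfr56, at a mean of 0.677 CPM, overlaps it on the same strand. Iigp1 (Irga6), which destroys the vacuole of Toxoplasma, was almost silent, with 7, 24 and 8 reads in Gata2+/+ and 34, 14 and 58 in Gata2+/f. Its log2 fold change was 1.23 (SE 0.73, 95% interval −0.48 to 2.93).

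The antigen processing genes had the highest levels of all members in Gata2+/+ per length of exon. Psmb8 and Psmb9 encode catalytic subunits of the immunoproteasome, and Tap1 is one chain of the pump that carries peptides into the endoplasmic reticulum. Scaled to exon length, Psmb8 was at 25.0 and 28.8, Tap1 at 20.1 and 16.2, and Psmb9 at 19.5 and 15.3 CPM per kb of exon in Gata2+/+ and Gata2+/f. Psmb8 had 78.9, 93.0 and 82.1 CPM against 69.1, 128 and 94.7 CPM (0.20, interval −0.41 to 0.81). Psmb9 had 73.8, 68.2 and 72.6 CPM against 39.1, 48.3 and 81.1 CPM (−0.35, interval −1.04 to 0.34), and Tap1 had 119, 98.8 and 113 CPM against 77.7, 73.3 and 115 CPM (−0.31, interval −0.87 to 0.25). Both lay below Gata2+/+ in Gata2+/f replicates 7 and 9 and within or above its range in replicate 11. Psmb9 and Tap1 start back to back on chromosome 17, and their RefSeq windows share 275 of 300 bases (34187306 to 34187580). The number of Psmb9 reads per Tap1 read was nearly constant, at 0.622, 0.690 and 0.644 in Gata2+/+ and 0.503, 0.659 and 0.702 in Gata2+/f. Their annotated 5′ ends overlap by 212 bases on opposite strands, and the strand setting of the counting is not given in the sources used here.

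The single libraries differed at least as much as the genotypes did. With each gene's own mean as reference, the median of the 27 type I targets was −0.70, 0.31 and −0.79 (log2) in Gata2+/+ replicates 3, 5 and 6 and 0.075, 0.061 and 1.02 in Gata2+/f replicates 7, 9 and 11. Gata2+/+ replicate 5 thus lay above 2 of the 3 Gata2+/f libraries. Of the 27 genes 15 were highest in Gata2+/f replicate 11, and within Gata2+/+ 22 of 27 were highest in replicate 5. The 7 GTPases had medians of −0.28, 0.38 and −0.10 against 0.079, −0.024 and 0.14. The 3 antigen processing genes had 0.25, 0.060 and 0.21 against −0.37, −0.36 and 0.24.

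**Figure D4:**
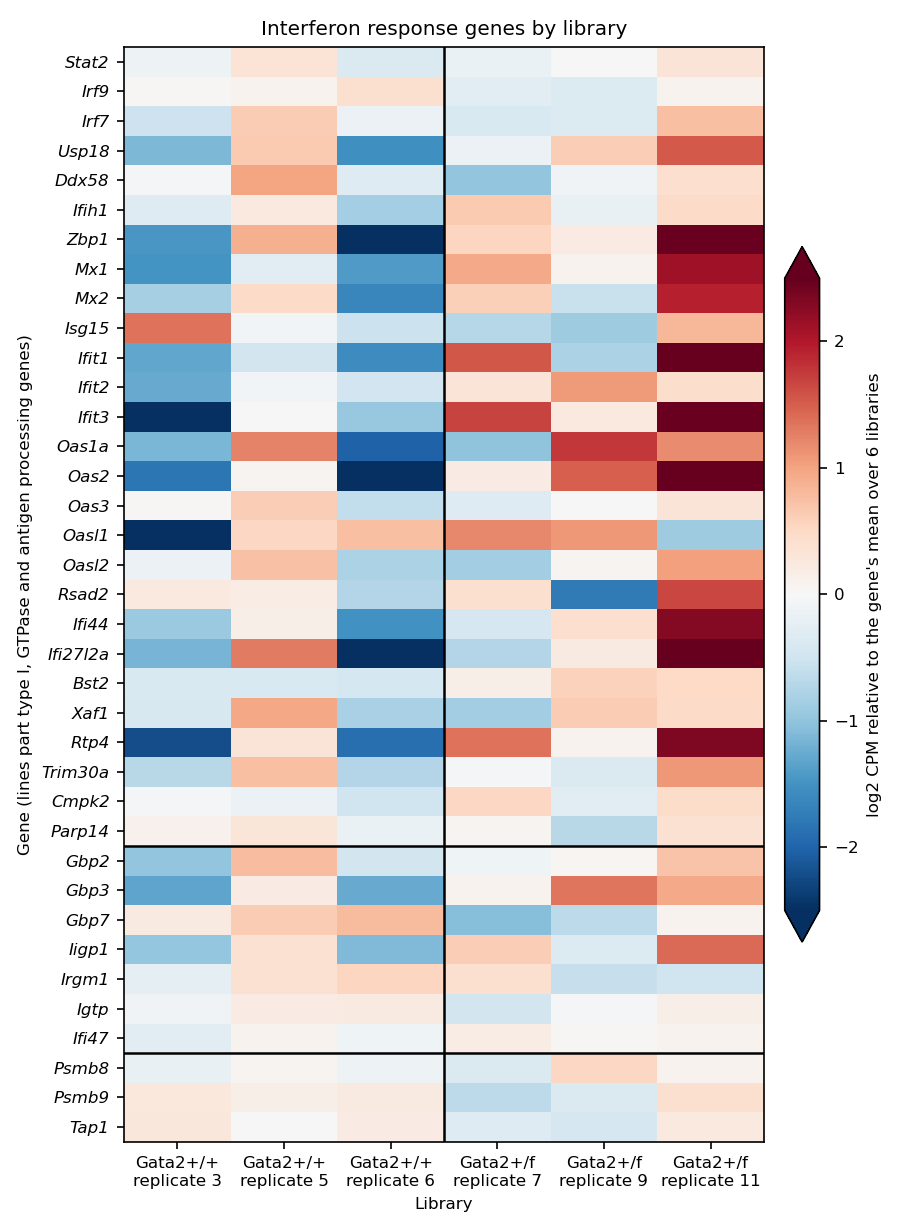
Log2 CPM of the 37 members (rows) in the 6 libraries (columns), relative to each gene's mean; red is above and blue below the mean, colours saturate at 2.5, and lines part the classes and the genotypes. Most type I targets are red in Gata2+/f replicate 11 and blue in Gata2+/+ replicates 3 and 6, and the antigen processing rows are paler.

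Genes of other blood cells also differed between the libraries. Over all tested genes, 13.1% had groups apart with Gata2+/f above and 16.6% with Gata2+/f below. All 10 monocyte and macrophage markers had positive log2 fold changes, and 3 of them had groups apart with Gata2+/f above. Their summed level was 244 to 695 CPM in Gata2+/+ and 811 to 2051 CPM in Gata2+/f, highest in its group in replicate 5 and in replicate 11, as for the type I targets. Conventional dendritic cell markers (7 of 7 positive, 4 with groups apart) summed to 29.0 to 49.3 CPM against 106 to 186 CPM. Plasmacytoid dendritic cell markers, of which Bst2 is one, summed to 36.7 to 50.5 against 64.5 to 76.7 CPM. Of 7 tested genes 6 were positive and 5 had groups apart with Gata2+/f above. Within Gata2+/+ the sum was highest in replicate 6, where Tcf4 alone had 33.0 of the 50.5 CPM. The median of the list, with each gene's own mean as reference, was instead highest of Gata2+/+ in replicate 5. It was −0.77, −0.39 and −0.92 (log2) in replicates 3, 5 and 6. The defining marker Siglech was at 0.520, 0.153 and 0.109 CPM against 3.81, 1.90 and 5.38 CPM, and Klk1 was at 0 in 4 libraries. Of the dendritic cell markers, Cd300c and Xcr1 had 0 Gata2+/+ libraries above the count filter, Siglech 1, and Cox6a2 and Clec9a 2. These genes passed the filter wholly or in part through Gata2+/f, so the counts of both dendritic cell lists are not read as support. The markers listed as late neutrophil (10 of 10 positive, 8 with groups apart) summed to 151 to 443 against 4001 to 8000.4 CPM. That sum rests on S100a8, S100a9 and the granule genes Ngp, Ltf, Camp and Lcn2, with Gata2+/f means of 426 to 1650 CPM. Mmp8, Mmp9, Retnlg and Cxcr2 had means of 15.7 to 54.5 CPM there, and Mmp8 and Retnlg had overlapping groups. The part of any of these blood cells in the interferon response values was not tested.

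T cell markers summed to 0.580 to 1.74 CPM against 1.59 to 5.04 CPM, and Trac, the constant region of the T cell receptor, stayed at or below 0.0400 CPM. Of the NK cell markers Ncr1 had 0 reads in Gata2+/+, and the sums of 10.3 to 41.7 and 19.98 to 106 CPM were almost wholly Nkg7. B cell markers summed to 3.28 to 9.16 against 15.5 to 24.1 CPM, erythroid markers to 2267 to 3291 against 625 to 2510 CPM, and mast cell and basophil markers to 10078 to 12342 against 1055 to 3875 CPM. By the median of their list, mast cell and basophil markers were also highest of Gata2+/+ in replicate 5 (1.84) and of Gata2+/f in replicate 11 (−0.66). The markers of the sorted progenitors were present throughout (1856 to 4482 and 2694 to 10737 CPM in sum).

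**Figure D5:**
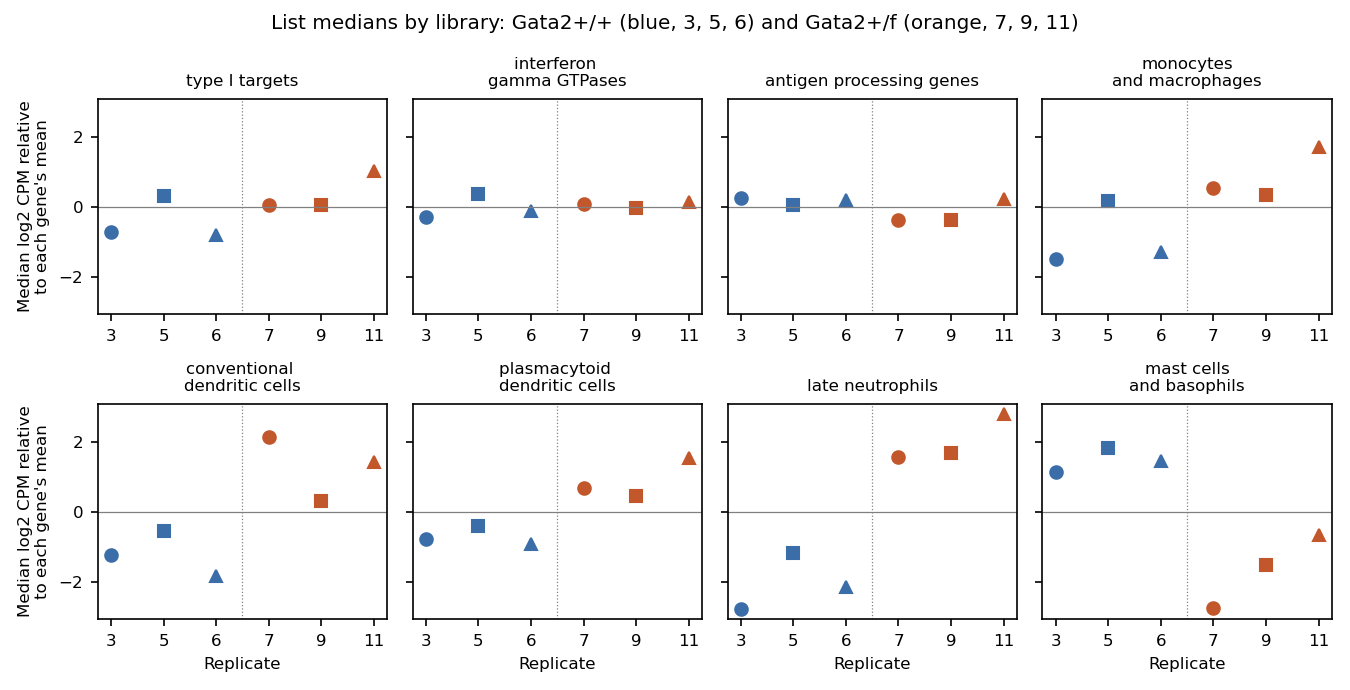
Median log2 CPM relative to each gene's mean (y axis) in each library (x axis, replicate numbers), for the 3 classes of interferon response genes and 5 lists of cell type markers, with Gata2+/+ in blue and Gata2+/f in orange. For type I targets, GTPases, monocyte, plasmacytoid dendritic cell and mast cell genes and the late neutrophil list, replicate 5 is the highest Gata2+/+ library. For the same lists replicate 11 is the highest Gata2+/f library. Conventional dendritic cell genes are highest of Gata2+/f in replicate 7, and antigen processing genes are highest of Gata2+/+ in replicate 3. Mast cell genes are highest in Gata2+/+.

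Interferon transcripts themselves were nearly absent. Of 14 ligand genes 9 had 0 reads in every library, which allows up to 3 reads, or 0.0424 to 0.0600 CPM, per library by counting error alone. Ifna2 had 6 reads, all in Gata2+/f replicate 9, and Ifnb1 had 1 read there. Ifng, the product of T and NK cells, had 0, 0 and 5 reads in Gata2+/+ and 1, 2 and 17 in Gata2+/f, highest in replicate 11. Ifnz was the 1 ligand gene tested, at 0.220, 0.255 and 0.265 CPM against 0.113, 0.301 and 0.149 CPM.

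Of 9 genes for receptors and their kinases, 2 had an unadjusted p under 0.05 with positive and 3 with negative fold changes, and 0 passed the adjusted threshold in edgeR. Over all tested genes the shares at that unadjusted p were 11.1% positive and 11.5% negative. Groups were apart for 7 of the 9 genes, 3 with Gata2+/f above and 4 below, against 13.1% and 16.6% of all tested genes. Ifnlr1, the specific chain of the type III interferon receptor, had 0.140, 0.443 and 0.280 CPM against 3.52, 1.07 and 7.26 CPM. Its log2 fold change was 3.77 (SE 0.84; adjusted p = 0.0966 in edgeR, 5.54e-05 in DESeq2), and its groups were apart. Jak2, a kinase of the interferon gamma receptor and of many cytokine receptors, had 301, 206 and 214 CPM against 155, 119 and 153 CPM (−0.76, SE 0.24, edgeR adjusted p = 0.151). Among 8 further STAT and IRF factors 3 were positive (11.1% of all tested genes) and 1 negative (11.5%) at an unadjusted p under 0.05. Irf8, which directs monocyte and dendritic cell fate, was at 12.4, 32.4 and 13.9 CPM against 69.8, 109 and 66.5 CPM (2.06, SE 0.43; adjusted p = 0.0966 in edgeR, 0.000797 in DESeq2). Irf4, a factor of lymphocytes and dendritic cells, was at 1.54, 2.57 and 0.950 CPM against 4.17, 3.74 and 15.8 CPM.

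In the list of sensor adaptors and kinases 4 of 12 genes were positive (11.1% of all tested genes) and 1 negative (11.5%) at an unadjusted p under 0.05. Unc93b1, which escorts nucleic acid sensing Toll-like receptors to endosomes, had 34.0, 76.9 and 32.9 CPM against 111, 168 and 235 CPM (1.84, SE 0.43; adjusted p = 0.1003 in edgeR, 0.00502 in DESeq2). Tlr3, the endosomal receptor for double-stranded RNA, had 0.0400, 0.238 and 0.109 CPM against 2.58, 0.585 and 1.3003 CPM (3.49, SE 0.85). The list of 9 inhibitors, which also holds the exonuclease gene Isg20, had 0 positive and 1 negative. That gene was Ptpn2, a phosphatase that acts on Jak1, at 101, 100.2 and 78.8 CPM against 50.7, 38.95 and 62.0 CPM (−0.89, SE 0.24, edgeR adjusted p = 0.127). Isg20 was at 10.98, 10.7 and 11.3 CPM against 34.5, 22.2 and 10.1 CPM.

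A second list of 30 type I targets, of which 29 were tested, did not share the direction of the first: 15 log2 fold changes were positive and 14 negative, with a median of 0.021. At an unadjusted p under 0.05, 7 were positive and 2 negative, and for this and the next lists the shares of all tested genes were again 11.1% and 11.5%. Phf11d, a PHD finger gene, had 0.320, 0.987 and 0.327 CPM against 3.64, 1.14 and 5.89 CPM (2.70, SE 0.78; adjusted p = 0.134 in edgeR, 0.00526 in DESeq2). Samhd1, which hydrolyses deoxynucleotides, had 303, 342 and 416 CPM against 157, 198 and 247 CPM (−0.82, SE 0.26, edgeR adjusted p = 0.148). Of 12 further GTPases 9 were matched in the table and 8 tested, with 3 positive at an unadjusted p under 0.05. Gbp8 had 0.0800, 0.766 and 0.156 CPM against 4.19, 0.719 and 8.98 CPM (a log2 fold change of 3.78, SE 1.155), and Gbp4 had 0.0400, 0.221 and 0.218 CPM against 0.736, 0.184 and 1.76 CPM. For both, replicate 9 lay within the Gata2+/+ range, as for Ifit1. Of 13 further class I genes 3 were positive and 2 negative at an unadjusted p under 0.05. H2-T23, the nonclassical class I molecule Qa-1, had 524, 425 and 365 CPM against 125, 169 and 265 CPM (−1.23, SE 0.33; adjusted p = 0.121 in edgeR, 0.0340 in DESeq2). Nlrc5, the transactivator of class I genes, had 3.94, 9.17 and 3.21 CPM against 11.4, 14.4 and 27.1 CPM (1.70, SE 0.54; adjusted p = 0.149 in edgeR, 0.0263 in DESeq2). The levels of Nlrc5 and H2-T23 thus went opposite ways, each with groups apart.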

How the data were processed

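RNA-seq of 6 libraries, 3 Gata2+/+ and 3 Gata2+/f, was analysed. Per the labels' protocols, frozen marrow was thawed, c-kit+ cells were sorted, and stranded poly-A libraries were made. Tools named in the submitters' processing notes are STAR 2.5.4a, RSEM 1.3.0 and CASAVA 1.8.2, with the build GRCm38. Deposited were expected counts of RSEM per Ensembl gene, not normalized (11.7% not whole). They were rounded. The annotation release, strand setting and trimming are not given in the sources used here. Reads shared by paralogs are divided by the authors' counting model.

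Symbols, positions and exon lengths came from GENCODE M21. Genes passing filterByExpr (minimum count 10) in edgeR 4.0.16 (R 4.3.3), 15432 of 43629, were scaled by TMM and tested two-sided by glmQLFit (legacy form) and glmQLFTest without covariates, with Benjamini-Hochberg adjustment over all of them and a threshold of 0.05. Standard errors and 95% intervals come from that fit. Promoter sequences are RefSeq's, on GRCm38.p6. Named are Gata2, all 37 members, the 2 genes of smallest p in each pathway list, ligands by their counts, and cell type markers; other names are given as chosen after their values were seen. Members and lists were chosen with earlier results of these data known. Alternatives were DESeq2 1.42.0, the newer edgeR form, limma 3.58.1 voom, other scalings, filters and thresholds, and leaving out each library.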

Additional observations from a re-analysis of the deposited data

How the results depend on the processing

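The count of 0 members past the threshold held under all alternatives (the newer edgeR form, limma voom, both other scalings, both other filters, leaving out each library, and a threshold of 0.1) except DESeq2, which called 5. Over all genes the count of 0 went to 1724 in DESeq2, 32 in the newer edgeR form, 9 in limma voom, 19 with genes of at least 1 count, 444 at a threshold of 0.1, and between 0 and 66 with 1 library left out (66 without Gata2+/f replicate 11). The log2 fold changes of 25 of 36 members kept their sign throughout. Those of the other 11 turned with a library left out, and ranged from −0.029 to 0.29 (Stat2), −0.41 to 0.42 (Irf7), −0.77 to 0.046 (Ddx58), −1.24 to 0.30 (Isg15), −0.30 to 0.27 (Oas3), −0.37 to 0.70 (Oasl2), −0.23 to 1.27 (Rsad2), −0.19 to 3.67 (Ifi27l2a), −0.19 to 0.82 (Xaf1), −0.11 to 1.09 (Trim30a) and −0.31 to 0.20 (Parp14). Oas3 was also at 0.0015 under upper quartile scaling, which moved the median of all genes from 0.019 to 0.11. The class medians moved by less than the spread between libraries under each alternative, including −0.50 to −0.098 for antigen processing and 0.0018 for the GTPases with a filter of 1 CPM in 3 libraries. With CT added at the end of its letters the ISRE matched 10 of 28 genes, and with TTCCNGGAA the GAS matched 3. The cause of these differences was not tested. No paired analysis was possible because the groups share no replicate numbers. Genes at a few reads, such as Ifit1, Mx2 and Ifi44, are limited by counting error.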
